A study of Homo sapiens with 6 samples.

Results

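Fibroblast growth factor (FGF) signalling was followed in PA1 cells through 10 genes, 6 ligand genes (FGF2, FGF4, FGF8, FGF9, FGF17 and FGF19) and the 4 receptor genes FGFR1 to FGFR4. They were taken by symbol from a table of 59653 genes, and all 10 were present in it. PA1 is an established line from a human ovarian teratocarcinoma, labelled wildtype in both groups. One group received a control siRNA (3 libraries) and the other siRNA against SOX2 (3 libraries). The labels name a pair of SOX2 siRNAs without saying whether they were pooled. Cells were transfected in adherent culture, moved after 24 h to poly-HEMA plates that block attachment, and grown there for 72 h before mRNA sequencing. Nothing in the labels says that replicates came from separate cultures, so p-values measure only the spread between these libraries.

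Secreted FGFs bind receptor tyrosine kinases on the cell surface, with heparan sulfate chains as co-factors. The activated receptor recruits adaptors such as FRS2 and switches on the RAS-ERK cascade, whose output includes its own inhibitors, the sprouty and dual-specificity phosphatase genes. In pluripotent cells FGF2 sustains human cultures, FGF4 is a textbook target of SOX2 acting with OCT4 (POU5F1), and FGF8 is a ligand of the gastrulating embryo.

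Libraries held 25152313 to 32753184 counts, and 3 counts, the floor used here, equalled 0.0909 to 0.120 CPM (counts scaled to the composition-adjusted library size). The targeted gene SOX2 had 20.6% of its control level after SOX2 siRNA (edgeR log2 fold change -2.28, SE 0.0437, adjusted p = 5.97e-16). All 9 pluripotency markers listed for a teratocarcinoma line (SOX2 itself, POU5F1, LIN28A and SALL4 among them) had over 3 counts in every library, and their summed CPM was 3043 to 3094 in control and 2824 to 2887 with SOX2 siRNA. NANOG, UTF1, LEFTY1, ZFP42 and TDGF1 are not on that list and had low counts, which are given below. The sum of the 9 joins opposite changes of single markers. Mean PODXL fell from 1316 to 671 CPM, and SOX2 fell as well. LIN28A rose from 706 to 1148 CPM, LIN28B from 239 to 359 and DNMT3B from 99.7 to 132, and POU5F1 also rose. These are bulk libraries, in which fewer cells of a type and less RNA per cell cannot be told apart. Below, the 3 values of a group are in the order of replicates 1 to 3.

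The FGF4 gene lies on chromosome 11 (GRCh38 chr11:69771016-69775403, minus strand). The element through which SOX2 and OCT4 act on it is known to sit in its 3′ untranslated region, so the last 1000 bases of the GENCODE 29 transcript, all within that region, were searched on both strands for the SOX core CTTTGTT followed after any 3 bases by the octamer ATGCAAAT. A match was found, 656 bases before the annotated 3′ end, at chr11:69771672-69771698 on the minus strand. It is shown because the expression of FGF4 is set against it below, with the SOX core and the octamer in capitals.
FGF4 3′ element: aactCTTTGTTcgaATGCAAATcatcg
Among the same windows of 10149 protein-coding genes with a 3′ untranslated region at least that long, FGF4 was the 1 gene with this composite, a share of 0.00985%, while 7.97% held the octamer alone. The window and the pattern were chosen for the known FGF4 element, so the match and its rarity are a description and no test. The letters describe a match and say nothing of occupancy.

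RefSeq promoter sequences (GRCh38.p14) were matched for 4 of the 10 genes, FGF2, FGFR2, FGFR3 and FGFR4. In the 250 bases before each start, the shorter SOX core CTTTGT, searched on both strands, occurred before 2 of the 5 starts of FGFR2 and 1 of the 2 starts of FGFR4, and before none of FGF2 and FGFR3. It occurred in 13.7% of all 35116 promoter windows, and the octamer ATGCAAAT, found in 1.63% of them, was in none of these. FGFR2, the receptor gene with the largest change, is shown at its outermost start (chr10:121598445-121598694) and at an internal start (chr10:121596646-121596895), both on the minus strand, with the SOX core in capitals.
FGFR2 outermost start: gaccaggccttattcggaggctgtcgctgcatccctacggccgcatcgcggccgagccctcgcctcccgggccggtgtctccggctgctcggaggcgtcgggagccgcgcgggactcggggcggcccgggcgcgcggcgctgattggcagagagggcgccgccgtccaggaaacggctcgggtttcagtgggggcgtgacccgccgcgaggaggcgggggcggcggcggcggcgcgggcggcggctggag
FGFR2 internal start: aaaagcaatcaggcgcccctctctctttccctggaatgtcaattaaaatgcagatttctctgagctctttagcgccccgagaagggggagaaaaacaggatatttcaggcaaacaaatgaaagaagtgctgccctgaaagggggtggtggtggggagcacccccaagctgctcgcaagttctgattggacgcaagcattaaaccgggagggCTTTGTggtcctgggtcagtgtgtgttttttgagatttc
The outermost window is 78.4% G and C and holds no core. The internal window is 50% G and C, and its core begins 39 bases before the start. The counts are per gene, so the starts could not be told apart.

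SOX2 siRNA went with a higher level of FGF8 and lower levels of FGF2, FGFR1 and FGFR2, while FGF4 was at the counting floor in both groups. Of the 10 genes 6 were tested, and 5 of these were called at a Benjamini-Hochberg adjusted p under 0.05, where 28.2% of all tested genes were called. FGF8 and FGFR4 were called higher (14.8% of tested genes) and FGF2, FGFR1 and FGFR2 lower (13.4%). The same 5 had groups that did not overlap, as did 41.8% of tested genes, and FGF8 and FGFR2 were called with at least a 2-fold change, as were 3.17%. The other tested gene was FGFR3, and FGF4, FGF9, FGF17 and FGF19 were too low to be tested. With so few genes, and FGF8 passing the filter on low counts through its higher group, these counts are a description.

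Among these ligands, FGF2 supplied nearly all counts, which are not scaled to gene length. FGF8 was the gene that rose, and the other 4 were at or near the counting floor. FGF4, which holds the SOX-octamer match, was counted 0, 0 and 0 times in control and 1, 0 and 0 times with SOX2 siRNA. Both groups were under the floor, which allows a level of up to 0.120 CPM, so no fold was computed and a decrease could not have been seen at this depth. Transcripts of both factors were present in these cells: POU5F1 averaged 301 ± 18.6 CPM in control against 339 ± 12.96 with SOX2 siRNA, and SOX2 255 ± 10.1 against 52.5 ± 2.21 CPM (SD, n = 3).

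FGF8, which signals through the IIIc forms of the receptors and through FGFR4, was counted 17, 10 and 8 times in control and 73, 80 and 84 times with SOX2 siRNA. On the CPM scale these were 0.515, 0.399 and 0.277 against 2.42, 2.47 and 2.81. Every SOX2 siRNA library was above every control library. FGF8 (chr10:101770130-101780369) rose 6.35-fold (log2 fold change 2.67, SE 0.242; edgeR adjusted p = 1.97e-07), ranking 417th by p among 17592 tested genes. It passed the filter on low counts through its SOX2 siRNA libraries, since 2 of the 3 control libraries reached the filter value of 0.333 CPM and 3 libraries were needed. Without the filter its log2 fold change was also 2.67, but this value rests on the same counts and is no check of that selection. The 5 mesoderm markers listed (TBXT, MIXL1, EOMES, MESP1 and HAND2) summed to 5.91 to 7.37 CPM in control and 41.5 to 47.3 with SOX2 siRNA, nearly all from EOMES and MIXL1, with TBXT at 0 counts and HAND2 at 1 or fewer in all 6 libraries. Their part in the result was not tested.

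FGF2, the broad ligand that is exported without a signal peptide, was counted 2419, 1938 and 2303 times in control and 1765, 1854 and 1938 times with SOX2 siRNA. Its CPM values were 73.3, 77.4 and 79.7 in control and 58.5, 57.3 and 64.9 after SOX2 siRNA, with no overlap. FGF2 fell to 78.5% of control (log2 fold change -0.35, SE 0.0509; edgeR adjusted p = 5.37e-05). Its exons share 804 bases with those of NUDT6 on the opposite strand, and the use of strand in counting is not given in the sources used here. NUDT6, named for that reason after its values were seen, averaged 12.5 ± 0.548 CPM in control against 10.5 ± 0.895 with SOX2 siRNA (SD, n = 3), with a log2 fold change of -0.25 (edgeR adjusted p = 0.0287), a call lost in 5 of 15 alternatives.

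FGF19, a hormone-like ligand that uses the co-receptor KLB, was counted 7, 1 and 6 times in control and 0, 1 and 0 times with SOX2 siRNA. Control replicate 2 was as low as the SOX2 siRNA library with 1 count, so the groups touched. The ratio of pooled counts, 1 against 14, was 0.0672 (exact 95% interval 0.00159 to 0.442, covering counting error only). FGF19 was too low for the reported fit, and with no filter beyond 1 count its edgeR adjusted p was 0.0168. That setting changed other edgeR adjusted p-values strongly. It gave FGF2 3.36e-12 against 5.37e-05 in the reported fit, FGF8 4.67e-22 against 1.97e-07, and FGF18 0.466 against 0.258. The FGF19 value is therefore not comparable with those of the reported fit, and FGF19 is not counted as called. KLB had at most 1 count in any library, and KL, the other endocrine co-receptor, at most 2.

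FGF9 was counted 2, 1 and 4 times in control and 2, 1 and 2 times with SOX2 siRNA, and FGF17, a close relative of FGF8, had 2, 0 and 0 against 0, 0 and 0. The interval of the FGF9 ratio, 0.168 to 2.46, spans no change, and for FGF17 the pooled count of 0 allows a ratio of up to 5.01. That bound rests on 2 counts in all, and a difference between FGF17 and FGF8 was not tested.

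**Figure D1:**
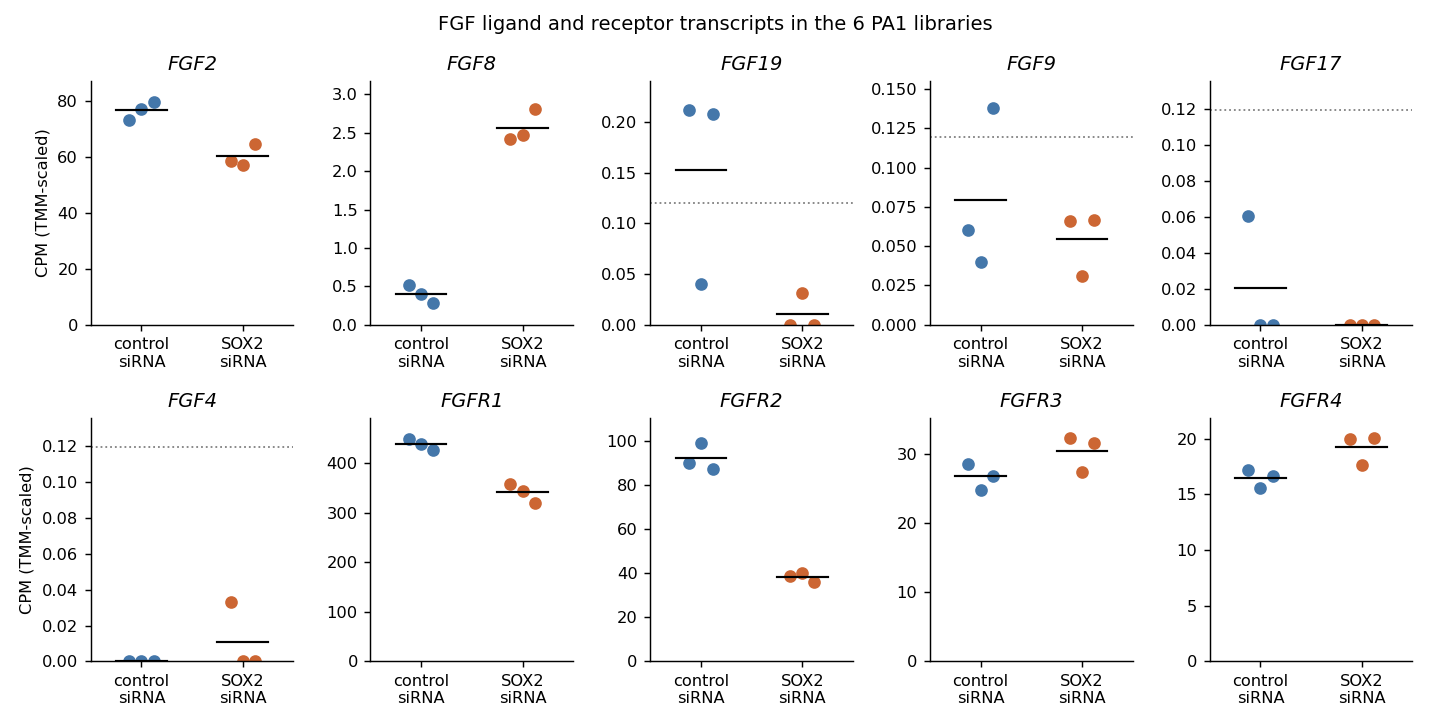
Level of each gene in CPM (vertical axis, starting at 0, its own scale per gene) in the 3 control siRNA and 3 SOX2 siRNA libraries (points), with the group mean (line); the dotted line marks the highest per-library value of 3 counts, 0.120 CPM. FGF8 is higher, and FGF2, FGFR1 and FGFR2 are lower, in all 3 SOX2 siRNA libraries, while FGF4 and FGF17 stay under the floor.

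Per kilobase of annotated exon, the scale on which genes can be compared, FGF2 led the ligands in both groups, at 11.3 ± 0.476 CPM per kb in control and 8.89 ± 0.600 after SOX2 siRNA (SD, n = 3). In control it was followed by FGF18 at 1.499 ± 0.0164 and FGF1 at 1.22 ± 0.0426 CPM per kb, with FGF8 at 0.283 ± 0.0849, overlapping FGF23 and FGF22. After SOX2 siRNA FGF8 stood second, at 1.83 ± 0.152 CPM per kb, overlapping FGF18 at 1.75 ± 0.126 and above FGF1 at 0.591 ± 0.0264. With the longest transcript as length, FGF1 stood above FGF18 in control, and FGF8 above FGF18 without overlap after SOX2 siRNA. FGF8 made up 0.345% to 0.695% of counts of the 6 ligands in control and 3.97% to 4.15% with SOX2 siRNA, and FGF2 98.9% to 99.4% and 95.8% to 95.9%. Together the 6 ligands went from 77.4 ± 3.09 to 62.9 ± 4.26 CPM (SD, n = 3; exact two-sided permutation p = 0.1, the smallest p that 3 against 3 allows).

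The remaining 12 secreted FGF genes included 4 that were tested. FGF1, the ligand that binds all 4 receptors, was counted 218, 155 and 189 times in control and 92, 98 and 98 times with SOX2 siRNA. It fell to 48.4% of control (log2 fold change -1.05, SE 0.115; edgeR adjusted p = 1.96e-06). FGF18, a member of the FGF8 subfamily with FGF17, was at 2.98 ± 0.0327 CPM in control and 3.48 ± 0.249 after SOX2 siRNA (n = 3, SD; log2 fold change 0.22, 95% interval -0.07 to 0.52; edgeR adjusted p = 0.258). Of the 8 that were not tested, 7 had at most 3 counts in every library, FGF3, FGF10, FGF16 and FGF21 with 0 throughout. Among the 4 FGF homologous factors, which stay inside the cell and do not signal through FGF receptors, FGF13 fell from 23.5 ± 0.782 to 15.1 ± 0.930 CPM (n = 3, SD; log2 fold change -0.64; edgeR adjusted p = 8.20e-07). FGF11 and FGF12 were not called, although without SOX2 siRNA replicate 1 FGF11 was (log2 fold change -0.43; edgeR adjusted p = 0.00169), and FGF14 had at most 1 count. Exons of FGF13 overlap those of FGF13-AS1 and another gene on the opposite strand.

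All 4 receptor genes were expressed and tested, and they did not move together. FGFR2 and FGFR1 fell, FGFR4 was called slightly higher by a narrow margin, and FGFR3 was not called.

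FGFR1 was the most abundant receptor, with 14815, 11000 and 12345 counts in control and 10807, 11138 and 9579 with SOX2 siRNA. On the CPM scale this was 449, 439 and 427 against 358, 344 and 321, so the lowest control library lay above the highest SOX2 siRNA library. FGFR1 fell to 77.8% of control (log2 fold change -0.36, SE 0.0402; edgeR adjusted p = 2.30e-06). Its exons touch those of LETM2 and AC087623.1 on the opposite strand. LETM2, named after its values were seen, had 59 to 110 counts per library, and AC087623.1 had 0 counts in each.

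FGFR2, the receptor whose IIIb and IIIc splice forms bind different ligands, was counted 2963, 2481 and 2518 times in control and 1168, 1290 and 1073 times with SOX2 siRNA. Its CPM values were 89.8, 99.03 and 87.1 in control and 38.7, 39.9 and 35.9 after SOX2 siRNA. The gap between the groups was several times the spread inside either. FGFR2 (chr10:121478334-121598458) fell to 41.6% of control (log2 fold change -1.27, SE 0.0545; edgeR adjusted p = 2.51e-11) and ranked 83rd by p among all tested genes. The table has no exon counts, so the forms were not separated. Of the regulators of that exon choice, ESRP1 and ESRP2, which favour the epithelial IIIb form, had 4 to 10 and 2 to 9 counts per library, below the filter. RBFOX2 rose from 254 ± 9.08 to 295 ± 7.22 CPM (n = 3, SD; log2 fold change 0.22; edgeR adjusted p = 2.42e-04), and PTBP1 was not called. The 5 trophoblast markers summed to 184 to 186 CPM in control and 140 to 142 with SOX2 siRNA. That sum is nearly all TFAP2A (log2 fold change -0.43), while HAND1 of the same list rose (1.03; edgeR adjusted p = 4.07e-08 and 1.03e-04), and GATA3 was not called. Of neural progenitor markers, NES was at 66.3% of control and POU3F2 at 2.93-fold (edgeR adjusted p = 1.84e-10 and 5.41e-11), and PAX6 was not called. Their part in the change of FGFR2 was not tested.

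FGFR3, the receptor known for restraining bone growth, was counted 942, 621 and 775 times in control and 972, 886 and 940 times with SOX2 siRNA. Its CPM values of 28.5, 24.8 and 26.8 in control overlapped those of 32.2, 27.4 and 31.5 after SOX2 siRNA. The log2 fold change was 0.18 (SE 0.0686, 95% interval 0.03 to 0.33) with an edgeR adjusted p of 0.0631. FGFR4, the main receptor for FGF19, was counted 568, 390 and 481 times in control and 603, 572 and 599 times with SOX2 siRNA. Its CPM values were 17.2, 15.6 and 16.6 against 19.97, 17.7 and 20.1, without overlap but with a gap smaller than the spread inside the groups. FGFR4 was higher by a log2 fold change of 0.22 (SE 0.0696; edgeR adjusted p = 0.0249), and DESeq2's Wald test gave an adjusted p of 0.0838. The call was also lost without control replicate 2 (adjusted p = 0.107) or 3 (0.0627) and without SOX2 siRNA replicate 1 (0.0783) or 3 (0.0898), as edgeR adjusted p-values. Primitive endoderm markers summed to 8.38 to 10.7 CPM in control and 14.01 to 17.7 with SOX2 siRNA, with SOX17 and TTR at 3 counts or fewer. Most of that rise came from GATA4, with means of 6.58 and 13.2 CPM. GATA6 (1.85 and 2.25) and AFP (0.731 and 0.572) had groups that overlapped. The part of these markers in the FGFR4 result was not tested. FGFR3 and FGFR4 had nearly equal estimates on either side of the threshold, and a difference between the pair was not tested.

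The receptors summed to 573 ± 14.1 CPM in control against 429 ± 20.4 with SOX2 siRNA (SD, n = 3), or 74.8% of control, with no overlap (exact two-sided permutation p = 0.1, the smallest possible). In control the order per kilobase of exon was FGFR1 at 31.7 ± 0.790, FGFR2 at 12.1 ± 0.826, FGFR3 at 5.51 ± 0.388 and FGFR4 at 3.41 ± 0.173 CPM per kb, with no overlap between neighbours. After SOX2 siRNA FGFR3, at 6.26 ± 0.533, stood above FGFR2, at 5.04 ± 0.269 CPM per kb (SD, n = 3). That exchange depends on the length used: with the longest transcript, FGFR2 was at 8.74 and FGFR3 at 6.84 CPM per kb after SOX2 siRNA. The FGFR1 annotation spans 13842 bases of exon but 6216 in its longest transcript, so with the latter its level was 70.5 CPM per kb in control.

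As shares of the receptor transcripts per kilobase, FGFR2 held 22.1%, 24.6% and 22.4% in control and 12.2%, 13.3% and 12.3% with SOX2 siRNA. The mean difference was -10.4 percentage points. FGFR3 took 10.5% ± 0.723 in control and 15.7% ± 1.27 after SOX2 siRNA, and FGFR4 6.47% ± 0.352 and 9.99% ± 0.748 (SD, n = 3). For these 3 receptors the exact two-sided permutation p was 0.1, or 0.133 adjusted over the 4 shares. The share of FGFR1 was 60.1% ± 0.328 and 61.7% ± 1.497 (SD, n = 3; exact permutation p = 0.3), so on this scale its share did not differ beyond the spread. With other lengths it did: with the longest transcript the FGFR1 share was 68.001% to 68.97% in control and 70.4% to 72.5% with SOX2 siRNA, and as a share of plain counts 75.9% to 76.8% and 78.6% to 80.2%, without overlap in either. Shares add to a fixed total, so a drop in one raises the others.

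**Figure D2:**
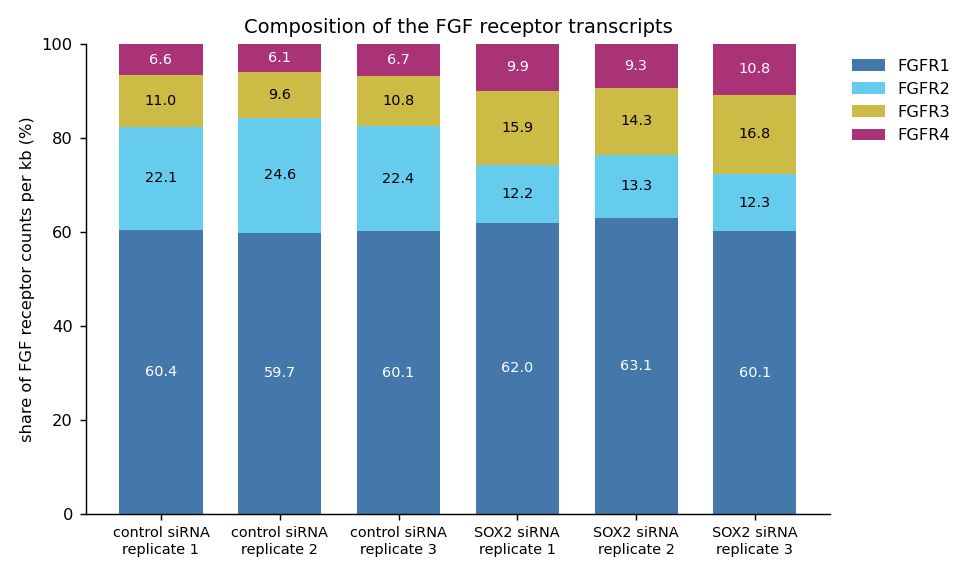
Share of each FGF receptor gene (coloured segments, in percent, printed in each) in the counts per kilobase of exon of the 4 receptors, for each of the 6 libraries (bars). FGFR2 holds 22.1% to 24.6% in control and 12.2% to 13.3% in SOX2 siRNA libraries, and FGFR1 59.7% to 60.4% and 60.1% to 63.1%, ranges that overlap on this scale and not with the longest transcript or plain counts.

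Proteins that bind FGFs or their receptors outside the kinase cascade were examined as a list of 12, of which 8 were tested, 3 were called higher and 3 lower (all tested genes: 14.8% and 13.4%). Their median log2 fold change was 0.14, against -0.00085 over all tested genes. FGFRL1, a receptor-like protein that binds FGFs but has no kinase domain, was counted 196, 110 and 146 times in control and 389, 300 and 305 times with SOX2 siRNA. It rose 2.09-fold (log2 fold change 1.06, SE 0.138; edgeR adjusted p = 8.71e-05), opposite to FGFR1 and FGFR2. FLRT2, a membrane partner of FGF receptors, rose from 5.27 ± 0.438 to 8.11 ± 0.693 CPM (n = 3, SD; log2 fold change 0.62; edgeR adjusted p = 2.32e-04). ANOS1, the secreted modulator of FGFR1 signalling named for Kallmann syndrome, fell from 346 ± 17.7 to 184 ± 9.99 CPM (n = 3, SD; log2 fold change -0.91; edgeR adjusted p = 4.29e-10). FGFBP3, a carrier that releases FGF from matrix, fell from 20.2 ± 0.957 to 14.7 ± 0.422 CPM (n = 3, SD; log2 fold change -0.47; edgeR adjusted p = 3.01e-05). FGFBP1 had 0 counts throughout and FGFBP2 at most 3.

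**Figure D3:**
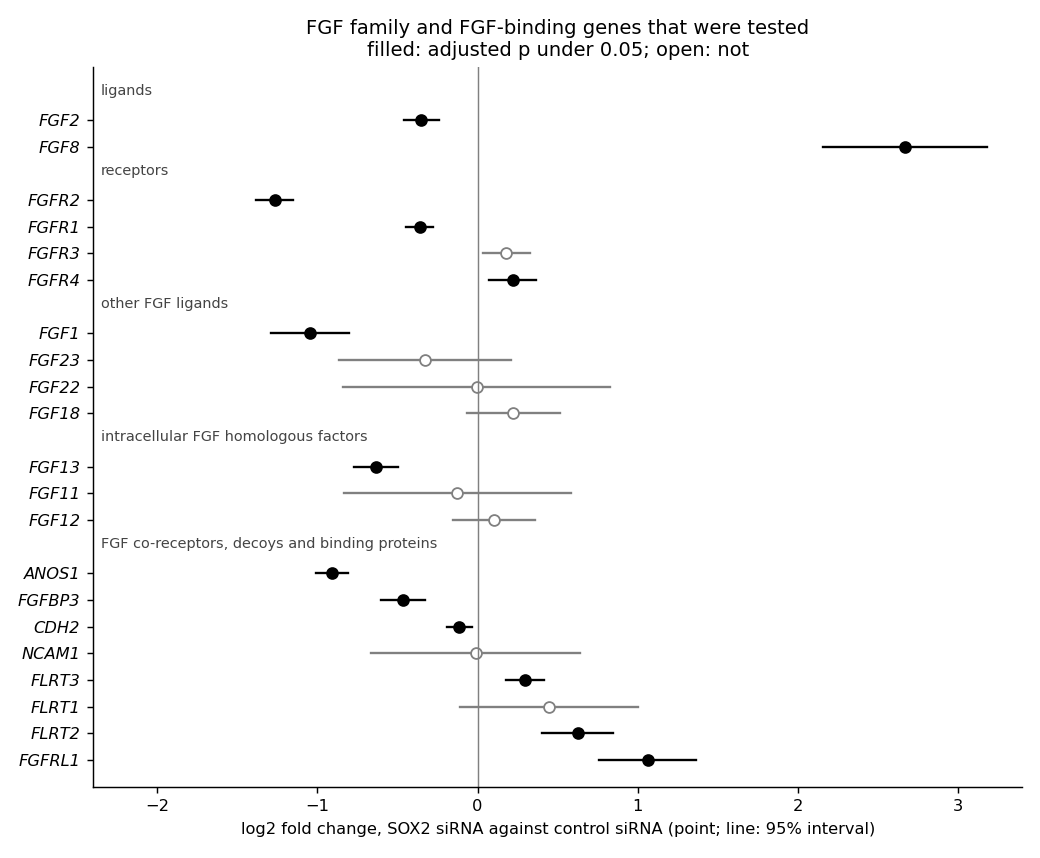
Log2 fold change of SOX2 siRNA against control siRNA (horizontal axis; point) with its 95% interval (line) for the tested FGF ligands, receptors, homologous factors and FGF-binding genes; filled points had an adjusted p under 0.05. FGF8 stands at 2.67, FGFRL1 at 1.06, FGF1 at -1.05 and FGFR2 at -1.27.

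Heparan sulfate proteoglycans and the enzymes that build and trim their chains moved mostly upward, with 13 of 19 tested members called higher and 1 lower (median log2 fold change 0.27), beside 14.8% and 13.4% of all tested genes. SULF1, which removes 6-O-sulfate groups from these chains, was counted 592, 486 and 515 times in control and 2117, 2361 and 2011 times with SOX2 siRNA. It rose 3.82-fold (log2 fold change 1.94, SE 0.0531; edgeR adjusted p = 2.43e-14). SULF2, with the same activity, was the member called lower (log2 fold change -0.31; edgeR adjusted p = 0.0491), and it lost that call in 8 of 15 alternatives, with adjusted p-values of up to 0.250 over edgeR, DESeq2 and limma. In 5 of the 8, 1 library was left out, any but SOX2 siRNA replicate 3. The core proteins SDC1 and SDC3 rose by log2 fold changes of 1.03 and 0.49 (edgeR adjusted p = 1.57e-09 and 1.31e-08), and the sulfotransferase HS6ST2, which adds the 6-O-sulfate that SULF1 removes, by 0.59 (9.82e-08). The 5 fibroblast markers, cells that make much matrix, summed to 305 to 352 CPM in control and 400.3 to 452 with SOX2 siRNA, mostly from COL1A1, while DCN had at most 4 counts. Their part in this result was not tested.

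Downstream of the receptors, 7 of 20 adaptor and RAS-ERK genes were called higher and 1, MAP2K1, lower, with log2 fold changes from -0.20 to 0.36 and a median of 0.03, where 14.8% and 13.4% of all tested genes were called higher and lower. SOS2, an exchange factor for RAS, rose by 0.36, SHC1 by 0.27, NRAS by 0.26 and PLCG1 by 0.25 (edgeR adjusted p = 1.61e-05, 3.89e-05, 6.26e-05 and 4.66e-05). The adaptor FRS2, through which FGF receptors reach RAS, was at 73.1 ± 2.85 and 74.3 ± 1.91 CPM (n = 3, SD; edgeR adjusted p = 0.730). Exons of SHC1 and PLCG1 overlap other genes, some of them on the same strand, so these 2 values are uncertain.

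Feedback and target genes of the ERK cascade were called higher for 11 of 20 and lower for 3 (median log2 fold change 0.27), against 14.8% and 13.4% of all tested genes. The inhibitors DUSP6, SPRY1 and IL17RD had log2 fold changes of 1.95, 0.95 and 0.52, and the immediate early gene EGR1 of -0.55 (edgeR adjusted p = 2.26e-15, 1.04e-07, 3.00e-09 and 7.63e-08). Not every inhibitor of the list rose. SPRED1, named after its values were seen, was called lower, with a log2 fold change of -0.23 (edgeR adjusted p = 0.00237). DUSP6 exons overlap a gene on the opposite strand.

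**Figure D4:**
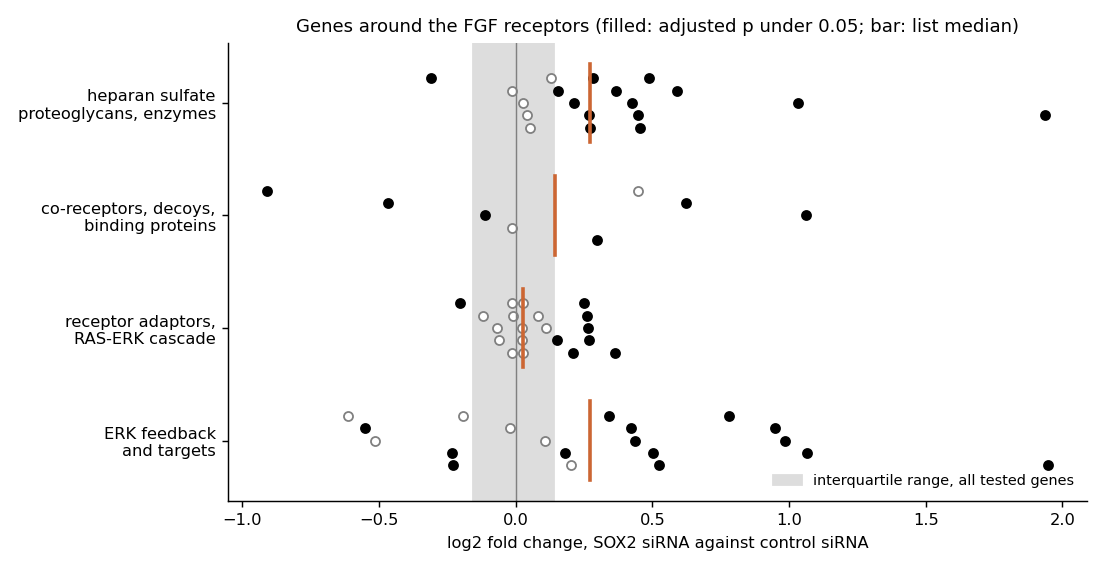
Log2 fold change of SOX2 siRNA against control siRNA (horizontal axis) for each tested gene (points) of 4 lists (rows), filled where the adjusted p was under 0.05, with the list median (bar) and the interquartile range of all 17592 tested genes (grey band, -0.15 to 0.14). SULF1 at 1.94 and DUSP6 at 1.95 lie farthest to the right.

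Other textbook genes with SOX2-OCT4 elements were set beside FGF4. Of 9, 5 were tested: SOX2 and NANOG were called lower, POU5F1 higher, and DPPA4 and FBXO15 were not called. SOX2 is itself the target of the siRNA. Of all tested genes 13.4% were called lower and 14.8% higher, and with so few genes these calls are a description. NANOG was at 0.820 ± 0.130 CPM in control and 0.216 ± 0.0425 after SOX2 siRNA (n = 3, SD; edgeR adjusted p = 3.08e-04). It was counted 28, 17 and 27 times in control and 7, 8 and 5 times with SOX2 siRNA. NANOG thus passed the filter on low counts through its control libraries, and it has no value with at least 10 counts in every library. The others, UTF1, LEFTY1, ZFP42 and TDGF1, had at most 5, 7, 1 and 3 counts in any library. NANOG and POU5F1 share sequence with pseudogenes, and POU5F1 exons overlap TCF19 on the opposite strand, so their counts are uncertain.

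The genes most like FGF8 and FGFR2 over the 6 libraries were found by Pearson's r of log2(CPM + 0.5), as a description. For FGF8 they were TRMT112, CALM3 and DFFA (r = 0.999 for each), with log2 fold changes of 0.28, 0.12 and 0.12. For FGFR2 they were FGD4, AC091078.1 and TNFRSF19, with r = 0.9995, 0.999 and 0.999 and log2 fold changes of -0.40, -1.38 and -0.95. With 6 libraries in 2 groups such values are common: 115 genes had r over 0.99 with FGF8 and 165 with FGFR2. FGF4 had no pattern to compare.

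**Figure D5:**
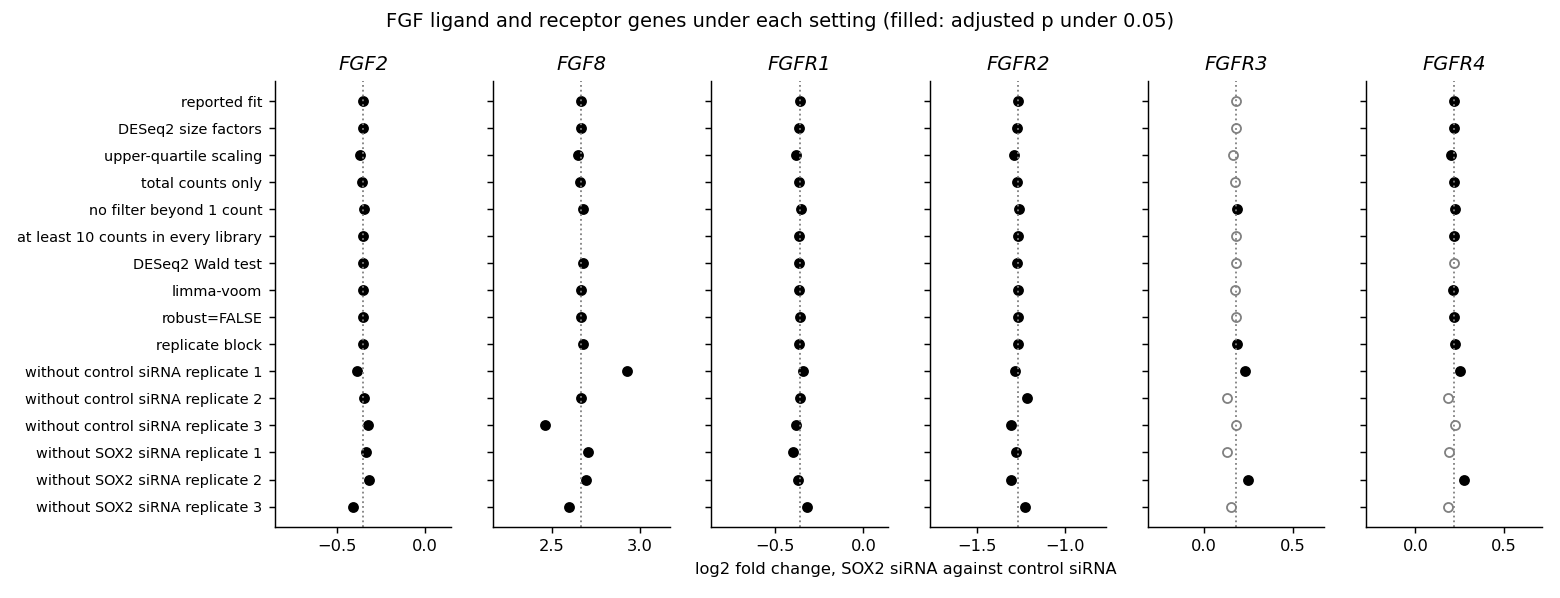
Log2 fold change of SOX2 siRNA against control siRNA (horizontal axis, 1 unit wide in each panel and not starting at 0) of the 6 tested ligand and receptor genes under the reported fit and 15 alternatives (rows), filled where the adjusted p was under 0.05. FGF2, FGF8, FGFR1 and FGFR2 are filled in every row that gave a value, FGFR4 in 11 of 16 and FGFR3 in 4.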

How the data were processed

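mRNA of 6 PA1 libraries was sequenced after Trizol extraction and a KAPA mRNA HyperPrep preparation, per the labels. The deposited table holds raw counts per gene symbol, 1 column per library, made by the authors. The submitters' processing notes name GRCh38.p13, bcl2fastq 2.20.0, STAR 2.7.3a, Salmon 0.14.1 and DESeq2 1.28.1 without roles; the counting program, strand use and annotation are not given in the sources used here. Groups and replicate numbers come from the titles.

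Of 59653 genes, 17592 passed edgeR's filterByExpr (minimum count 10) and were tested with R 4.3.3, edgeR 4.0.16 (TMM scaling, glmQLFit with robust=TRUE, glmQLFTest on group; Benjamini-Hochberg over all tested genes, threshold 0.05), after a test on simulated data. SE is the log2 fold change over the square root of F. CPM uses TMM-scaled sizes of the tested genes. Floors and the exact intervals of ratios of pooled counts cover counting error only. Intervals of log2 fold changes rest on the SE of the edgeR fit, which also includes the spread between these libraries. The labels name no molecular identifiers. Exon lengths, overlaps and transcripts came from GENCODE 29 (GRCh38), which need not be the authors' annotation; promoters came from RefSeq. Alternatives used DESeq2 1.42.0, limma 3.58.1 and other scalings, filters, a replicate block and each library left out. Single values used exact permutation tests (scipy 1.17.1).

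The members and lists were chosen with earlier results of these data known. Named were the 10 genes, SOX2, the called genes of lowest p in each list (4 at most), list genes at or below 3 counts, and the 3 genes most like FGF8 and FGFR2; others are named after their values were seen or as list examples (FRS2, PTBP1, SULF2, MAP2K1, DPPA4, FBXO15, FGF11, FGF12, FGF18, FGF22, FGF23, GATA3, HAND1, TFAP2A, NES, POU3F2, PAX6, the other marker genes and those marked). The sum of the neural progenitor list is not reported here, and 3 of its genes are given singly.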

Additional observations from a re-analysis of the deposited data

How the results depend on the processing

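FGF2, FGF8, FGFR1, FGFR2, FGF1 and FGFRL1 kept their direction and an adjusted p under 0.05 under every alternative that gave them a value; FGF8 has no value with at least 10 counts in every library. Over 44 named genes and 658 values under alternatives, 21 lost the call, 4 gained it and none changed sign. The losses were SULF2 in 8, FGFR4 and NUDT6 in 5 each and DFFA in 3, and the gains were FGFR3 with no filter beyond 1 count, with the replicate block (0.18, edgeR adjusted p = 0.0154), without control replicate 1 and without SOX2 siRNA replicate 2. Of 8 further genes named as not called, FGF11 and DPPA4 were called without SOX2 siRNA replicate 1 and 2, respectively, and FGF11 (0.04 without SOX2 siRNA replicate 3) and PTBP1 (-0.0026 without control replicate 2) changed sign. Calls among the 10 genes ranged from 4 to 7, the 7 with no filter beyond 1 count, where FGF19 was tested. Same-numbered libraries had correlations of deviations of 0.110, -0.0059 and 0.0017, so the numbers were not taken to pair the samples; with the replicate block 5177 genes were called against 4964, and 6 of the 10 genes against 5.

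Receptor shares per kilobase moved with the length. With the longest transcript the differences were 3.05 percentage points for FGFR1, -9.05 for FGFR2, 3.08 for FGFR3 and 2.92 for FGFR4; with shares of counts they were 3.08, -7.13, 2.43 and 1.62. All kept their sign, and no receptor's groups overlapped with these lengths, FGFR1 included. Leaving out 1 library, FGFR2 stayed between -10.9 and -9.60 percentage points. Depth limits FGF4, FGF9 and FGF17, which had at most 4 counts in any library.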

Other observations

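FGF3, FGF4 and FGF19 lie side by side on chromosome 11, and the protein-coding genes within 300 kb of FGF4 were read after the values were seen. CCND1, encoding cyclin D1, had 16524 to 23197 counts per library and fell from 690 ± 26.1 to 589 ± 33.9 CPM (n = 3, SD; edgeR log2 fold change -0.23, adjusted p = 6.54e-04). LTO1, whose exons overlap those of CCND1 on the opposite strand, was at 13.5 ± 0.400 and 13.9 ± 0.363 CPM (n = 3, SD; edgeR adjusted p = 0.785). The 3 FGF genes beside them summed to between 0 and 7 counts in each library.

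FGF7, a ligand of the IIIb form of FGFR2, had 1 to 9 counts per library, while its pseudogene copy FGF7P3 had 93 to 128 and FGF7P6 had 20 to 37. Neither copy was called (edgeR adjusted p = 0.613 and 0.799). How reads shared by these near-identical copies were assigned is not given in the sources used here, so the level of FGF7 itself is uncertain.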
